A study of Canis lupus familiaris with 30 samples.

Results

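The tumors described here were 5 canine medullary thyroid carcinomas (MTC), TC1020, TC1473, TC1601, TC1936 and TC2289, taken by library name out of the 30 primary thyroid tumors of the series. They came from the thyroid glands of pet dogs of several breeds, and each was sequenced once, as total RNA depleted of ribosomal RNA. The sample labels give the tissue and the library name but no tumor class, age, treatment or batch. The class is that of the study, whose veterinary pathologists read histology and calcitonin staining on fixed tissue, while RNA came from frozen pieces. The study also placed the 5 in 1 cluster by these same RNA data, so their transcripts are no independent check of the class. By growth pattern TC1936 was follicular-compact and the others compact. TC1020 stained very faintly and was first read as negative by the blinded pathologists. It was placed with the medullary tumors on its calcitonin transcript, so its *CALCA* level is no separate check of its class. The other 4, TC2289 included, were positive for calcitonin by staining. With 1 library per tumor, the 5 tumors were described gene by gene without a test between them.

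MTC arises from the C cells of the thyroid, neuroendocrine cells that lie beside the follicles and secrete calcitonin, a peptide hormone that lowers blood calcium. Such cells make prohormones, cut them with convertases, store the products with granins in dense-core granules and release them through the machinery that neurons use at synapses. *RET*, a receptor tyrosine kinase for ligands of the glial cell line-derived neurotrophic factor family, is the best known driver of the human disease.

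Between 24078138 and 29147072 reads were counted on genes in each tumor. The table held 30424 genes, of which 15780 carried a symbol. Levels are log2 of the normalized count plus 1, after each tumor's counts were scaled by a size factor, the median over genes of its ratio to the geometric mean of the 5 tumors. At least 10 counts were found in 1 or more of the tumors for 19925 genes, and in each single tumor for 15878 (TC1936) to 17482 (TC1473). TC2289 stood apart in how its counts were spread. In it, 79 genes held 50% of the counts, against 470 to 606 genes in the others, and the top 2 genes alone took 34.3%, against 13.4% to 17.5%. Those genes, ENSCAFG00000022711 and ENSCAFG00000022709, carry no symbol in the table. Their identifiers are close to that of the mitochondrially encoded *MT-CO1*, ENSCAFG00000022723, but what they encode was not looked up. Size factors take this uneven spread into account for the other genes. Scaling by total counts would move the median gene by -0.36 in TC2289 and by 0.24 in TC1020.

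Levels of *CALCA*, *RET* and *SCG2* were read first. *CALCA*, which encodes the calcitonin precursor and, by splicing, a calcitonin gene-related peptide, had levels of 18.63 in TC1020, 17.73 in TC1473, 16.75 in TC1601, 19.22 in TC1936 and 6.93 in TC2289. The count of *CALCA* in TC2289 was 95, where the other 4 tumors had from 132876 to 586358. TC2289 thus went against its class on the calcitonin gene, and it did so on no other gene of the 3. The study described its medullary cluster as high in calcitonin transcript, and the *CALCA* count of TC2289 departs from that. *RET* had levels of 13.49, 12.95, 13.73, 14.46 and 13.53 in TC1020, TC1473, TC1601, TC1936 and TC2289. All of them lay within 1.51, and TC2289 sat in the middle. *SCG2*, a granin, had levels of 16.24, 15.75, 16.52, 15.02 and 17.63 in the same order, and TC2289 was the highest.

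The wider list of C cell and neuroendocrine genes had 20 names, of which 19 were measured and all 19 passed the count filter. Their median range, the highest minus the lowest level over the 5 tumors, was 3.29, against 2.48 over all genes that passed and 2.07 over those with a mean normalized count of at least 200. The secretory granule genes *SCG3* (13.10 to 15.47), *SCG5* (12.34 to 14.40) and *CPE*, a carboxypeptidase that trims prohormones (12.41 to 14.97), differed by 2.06 to 2.56. *SYP*, a synaptic vesicle protein, ran from 10.81 to 12.62, and *SNAP25*, a fusion protein of the release machinery, from 10.70 to 12.77. *STX1A*, a syntaxin of the release machinery, was the steadiest member, with levels of 8.37, 8.02, 8.06, 8.51 and 8.16 and a range of 0.49. TC2289 lay inside the span of the other 4 tumors for all 6 of these genes.

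Other members of the list separated the tumors. *CHGB*, a further granin, had levels of 16.30, 16.61, 7.56, 13.49 and 13.89 in TC1020, TC1473, TC1601, TC1936 and TC2289, so that TC1601 lay 5.93 below the next tumor. *GFRA4*, the co-receptor that presents persephin to *RET*, had levels of 11.03, 2.17, 11.17, 13.82 and 5.73, with only 4 counts in TC1473. The convertase *PCSK1* was lowest in TC1473 (10.71) and highest in TC1936 (15.65), and *PCSK2* was lowest in TC2289 (12.93) and highest in TC1936 (16.21). TC1936 was the low tumor for the neuronal proteins *UCHL1* (6.89, others 10.58 to 11.33), *ENO2* (7.40, others 11.82 to 13.73) and *NCAM1* (9.23, others 9.67 to 13.22). It was also lowest for *DDC* at 7.26, the decarboxylase that makes dopamine and serotonin, where TC1020 was highest at 12.86.

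**Figure D1:**
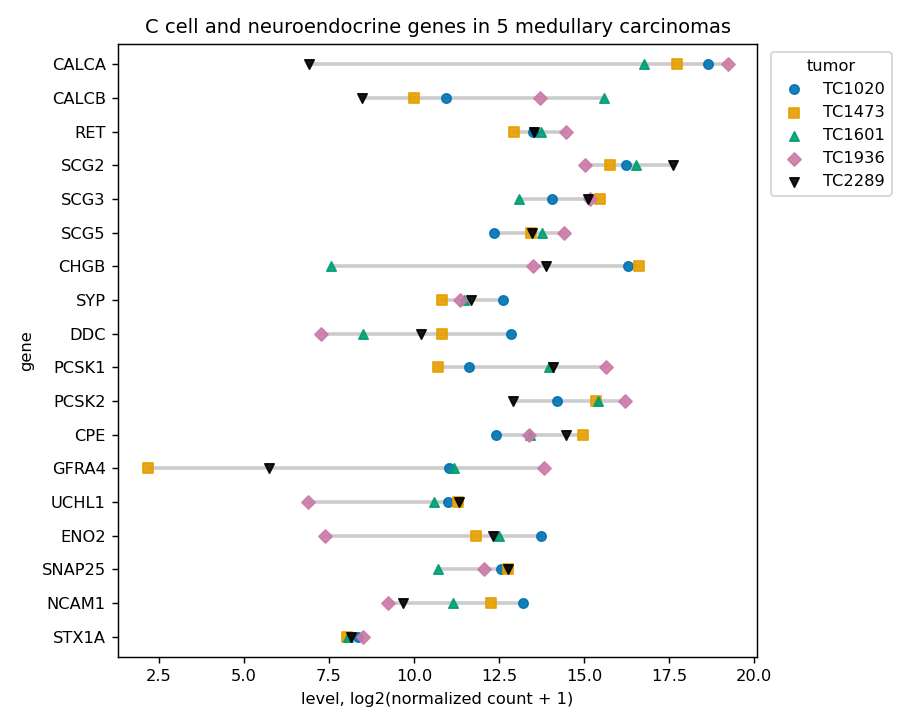
Levels, as log2 of the normalized count plus 1, of 18 measured C cell and neuroendocrine genes, with 1 symbol per tumor and a grey line from the lowest to the highest tumor. *CALCA* is at 6.93 in TC2289 and at 16.75 or more in the others, *CHGB* is low in TC1601, *GFRA4* is low in TC1473, and *RET* and *STX1A* are close together.

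*CALCA* has close relatives in the dog genome, and these were read beside it. Reads of near-identical copies may be lost or given to the wrong copy, so the levels of single copies are uncertain. *CRSP-2*, a calcitonin receptor-stimulating peptide gene, had 13145, 10056, 132936, 69402 and 97178 counts in TC1020, TC1473, TC1601, TC1936 and TC2289. At a level of 16.91 TC2289 was the highest of the 5, although by share of total counts TC1601 was (0.456% against 0.365%). *CRSP-2* was thus abundant in TC2289, where *CALCA* was not. *CRSP-3* was highest in TC1473 at 14.78, and the others lay between 9.71 and 11.97. *CRSP-4* was highest in TC2289 at 11.18 and lowest in TC1020 at 7.74. *CALCB* had levels of 10.95, 9.99, 15.59, 13.70 and 8.46. It too was lowest in TC2289, and its order of tumors was that of *CALCA* except for TC1601, which was highest. *CRSP-3* and *CRSP-4* were named after their values were seen. The calcitonin receptor, *CALCR*, had levels of 3.07, 2.17, 0.00, 0.00 and 10.93, so that it was counted at more than trace levels in TC2289 alone.

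The most abundant transcripts were ranked by the median share of a tumor's counts. Shares favour long transcripts, and lengths were not used here, so they describe where the reads lay and not how many molecules of each gene there were. Genes without a symbol were left out, and 3 of them were among the 23 highest median shares of all genes. The 20 named genes at the top held between 6.22% (TC1473) and 10.3% (TC1936) of the counts. They were of a few kinds, 7 mitochondrially encoded genes of the respiratory chain, secretory genes (*CALCA*, *CRSP-2*, *SCG2*, *PCSK2*, *PAM*), the extracellular proteins *CLU*, *PAPPA2*, *FN1* and *GPX3*, the elongation factors *EEF2* and *EEF1A1*, the lysosomal precursor *PSAP* and the chaperone *HSP90AA1*. *MT-CO1*, a cytochrome oxidase subunit, was first, with 2.05%, 1.53%, 0.902%, 1.31% and 1.86% of the counts in TC1020, TC1473, TC1601, TC1936 and TC2289. *CALCA* was next by its median of 0.939%. Its share was 1.82%, 0.939%, 0.456% and 2.33% in the first 4 tumors and 0.000357% in TC2289, with a 95% Wilson interval of 0.000292% to 0.000437%. For every other share of these genes the interval lay within 2.50% of the value on either side. Reads were not counted as single molecules, so such intervals cover counting error only.

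Most of these abundant genes were not alike in all tumors. *CLU*, a secreted chaperone, took 0.610%, 0.0829%, 0.966%, 1.88% and 0.243% of the counts, highest in TC1936 and lowest in TC1473. *PAPPA2*, a protease that cleaves binding proteins of insulin-like growth factors, took 0.342%, 0.175%, 0.336%, 1.16% and 0.157%, and was highest in TC1936. *PAM*, which amidates peptide hormones, calcitonin among them, took 0.312%, 0.295%, 0.0775%, 0.349% and 0.104%, with TC1601 and TC2289 low. The matrix protein fibronectin, *FN1*, took 0.911% in TC1601 and 0.0571% in TC2289. Only *PSAP* among the 20 had a range of levels under 1, at 0.94.

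**Figure D2:**
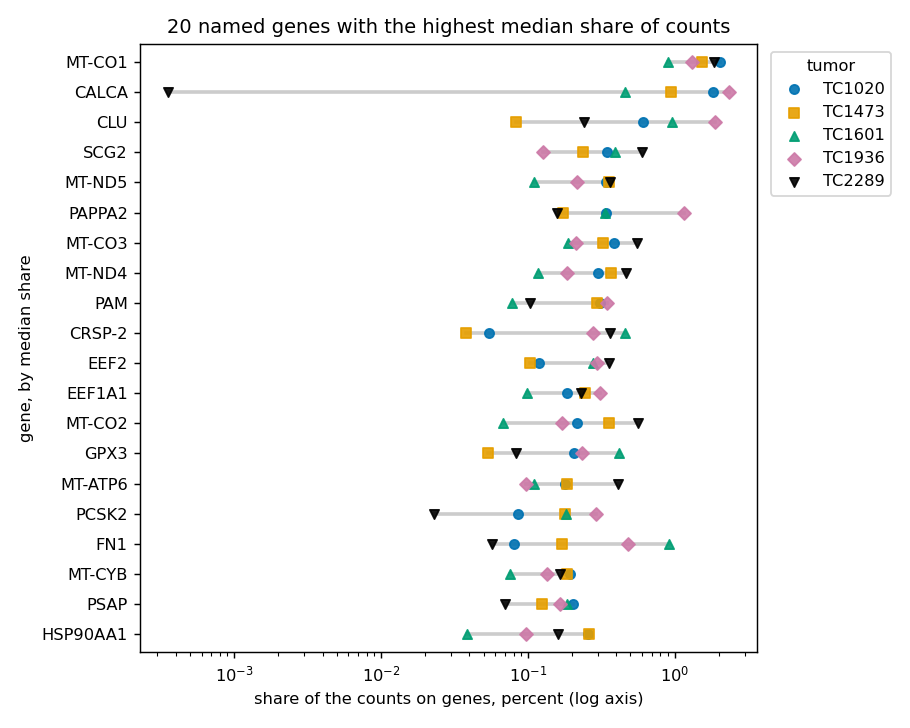
Share of the counts on genes, in percent on a log axis, of the 20 named genes with the highest median share, with 1 symbol per tumor and a grey line over the 5 tumors. *CALCA* spans the axis from 0.000357% in TC2289 to 2.33% in TC1936, while *MT-CO1* stays between 0.902% and 2.05%.

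Mitochondrially encoded and ribosomal protein transcripts set TC2289 apart. All 12 measured mitochondrial genes had their highest level in TC2289 and a median range of 2.19. Their summed share of counts was 4.79% in TC2289 and between 1.70% (TC1601) and 3.94% (TC1020) in the others. That sum covers genes with a mitochondrial symbol only, and so leaves out the 2 top genes, which carry none. Scaled by total counts, 10 of the 12 were highest in TC2289, and 2 in TC1020. Of 54 ribosomal protein genes that passed the filter, 51 were highest in TC2289 under each of the 4 scalings tried. Their share was 4.90% there and 1.43%, 1.47%, 2.17% and 2.05% in TC1020, TC1473, TC1601 and TC1936. TC1473 was lowest for 24 of the 54 and TC1020 for 23. These genes are short and many have copies elsewhere in the genome, and what RNA quality had to do with these values was not tested.

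Over the 19925 genes the median range was 2.48, with quartiles at 1.67 and 3.60. A gene was called variable where its range was 4 or more, at least 16-fold in the normalized count plus 1. Where the lowest tumor had 0 counts, which allow up to 3, the true fold may be under 16. A gene was called steady where its range was 0.5 or less with a mean normalized count of at least 200, so that counting error was small. By these limits 3845 genes (19.3%) were variable, and among genes with a unique symbol 17.1%. Of 10841 genes with that mean count, 95 (0.876%) were steady and 11.1% were variable, and with a unique symbol 0.839% were steady. At the first limit, *FGF12* lay just outside with a range of 3.9996 and *OTC* just inside with 4.0004. At the second, *KCNN3* lay inside with 0.498 and *ZC4H2* outside with 0.5004.

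**Figure D3:**
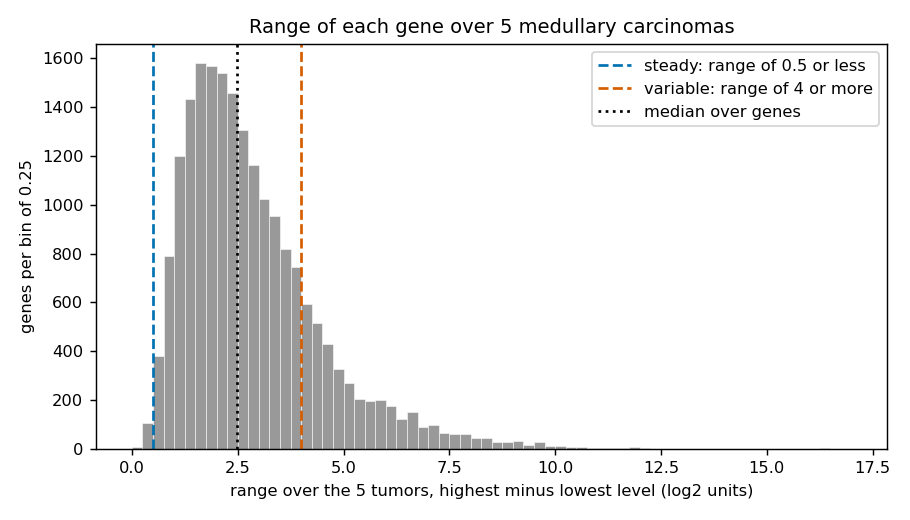
Number of genes, in bins of 0.25, by the range of their levels over the 5 tumors in log2 units, for the 19925 genes with at least 10 counts in 1 or more tumors. Dashed lines mark the limits of steady (0.5) and variable (4) and the dotted line the median of 2.48, so that few genes lie at the left and a long tail extends to 16.39.

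The 20 steadiest named genes had varied functions, and no member of the C cell list was among them. By the limit of 0.5, 1 of the 19 members of that list was steady (*STX1A*, 0.49). Among all genes with a unique symbol and a mean normalized count of at least 200, 0.839% were. *RTF2*, which acts at stalled replication forks, had the smallest range, 0.12, with levels of 10.74, 10.70, 10.76, 10.71 and 10.63. Its counting error alone was up to 0.0408 (SE, log2 scale) in a tumor, a sizeable part of that range. Next came *EFR3B*, a membrane scaffold (0.23), *DNAJC16*, a J-domain protein (0.24), and *STAU1*, which binds double-stranded RNA (12.07 to 12.31). The lipid and membrane genes *SPTLC1*, *PITPNA*, *VAPB*, *ANO6* and *MINPP1* had ranges of 0.27 to 0.32. *DNMT1*, the maintenance DNA methyltransferase, had levels of 10.68, 10.65, 10.71, 10.74 and 10.94, and *HNRNPF*, a splicing regulator, 11.57 to 11.85. *CCDC6*, which in human thyroid cancer is a fusion partner of *RET*, lay between 9.77 and 10.04. *CNIH4*, *TMEM60*, *ANP32A*, *VPS39*, *COMMD6*, *DCLK2*, *IPO9* and *PDAP1* completed the 20, with ranges up to 0.33. Scaled by total counts, 6 of the 20 kept a range of 0.5 or less, and the ranges of all 20 lay between 0.34 and 0.90.

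The lists of proteasome, spliceosome, folding and reference genes had median ranges below the 2.07 of all genes with a mean normalized count of at least 200, unlike the mitochondrial (2.19) and ribosomal protein lists (2.82). Proteasome subunits had a median range of 1.25 over 23 members. Of these 0 were variable, beside 19.3% of all genes. Only 1, *PSMD11* (10.58 to 11.00), was steady, beside 0.839% of genes with a unique symbol and a mean normalized count of at least 200. The summed normalized count of the proteasome subunits ran only from 43672.5 to 46387.2 over the 5 tumors. Spliceosome and RNA polymerase II subunits had a median range of 1.66 over 18 members, with *EFTUD2* steady at 11.13 to 11.59. They were not all alike: *SF3B1* was highest in TC1473 at 14.02 and lowest in TC1601 at 11.84, and *SNRPD2* was lowest in TC1473 at 8.03 and highest in TC2289 at 11.33. Chaperones and folding enzymes had a median range of 1.76. *HSPA5*, the main chaperone of the endoplasmic reticulum, had levels of 15.24, 15.01, 15.14, 15.07 and 14.43. The small heat shock protein *HSPB1* was at 5.86 in TC2289 and between 9.13 and 10.47 elsewhere. Common reference genes had a median range of 1.79 over 12 members, among them *ACTB* (14.12 to 16.24) and *GAPDH* (12.79 to 14.91). Of the 12, 0 were steady, beside 0.839% of genes with a unique symbol and a mean normalized count of at least 200.

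At the other end, 1406 of the 3845 variable genes had 0 counts in their lowest tumor and 2192 had 3 or fewer. A count of 0 allows up to 3 counts, and folds against it are lower bounds. For 1653 variable genes there were more than 3 counts in all 5 tumors. The 20 named genes with the widest ranges (11.22 to 16.39) included hormone precursors, enzymes, receptors, channels and membrane proteins of neurons, a laminin chain and *TG*.

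Among secreted peptides, *AGT*, the angiotensin precursor, had 133, 0, 41909, 82559 and 107 counts in TC1020, TC1473, TC1601, TC1936 and TC2289. It was high in TC1601 and TC1936 and its highest normalized count was at least 32650-fold that of TC1473. *NTS*, the neurotensin precursor, had levels of 8.14, 9.82, 16.29, 0.00 and 7.19, far highest in TC1601 and without a count in TC1936. *SST*, the somatostatin precursor, a peptide that a share of normal C cells also makes, had levels of 11.17, 15.03, 13.01, 0.00 and 6.94. It was highest in TC1473 and again at 0 counts in TC1936. TC1601 was high for all 3 of these peptides and for *CALCA*, and TC2289 for none of them.

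Enzymes differed as widely. *PNMT*, which turns noradrenaline into adrenaline, had 5, 3, 7124, 22736 and 4 counts, high in TC1601 and TC1936 and at trace in the other 3. *ALDH1A2*, which makes retinoic acid, had levels of 14.48, 9.37, 8.83, 5.48 and 2.27, highest in TC1020. *NOS1*, the neuronal nitric oxide synthase, had levels of 3.89, 9.57, 13.05, 1.03 and 1.18, highest in TC1601.

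Receptors, channels and neuronal membrane proteins made up much of the rest. *CCKAR*, a cholecystokinin receptor, had levels of 10.72, 0.00, 5.80, 11.82 and 0.00, present in TC1020 and TC1936 and without a count in TC1473 and TC2289. *KCNJ3*, a potassium channel subunit, had levels of 0.00, 11.92, 2.58, 2.63 and 9.43, and was high in TC1473 and TC2289. *CHRNA4*, a nicotinic receptor subunit, had 2876 counts in TC1020, 636 in TC1473 and 0 in TC1601 and TC1936. The vesicle protein *SYT13* had levels of 11.26, 13.15, 3.46, 1.03 and 6.25, and *NSG2*, a neuronal endosome protein, 10.03, 11.87, 1.41, 0.00 and 5.80. *LINGO1* (11.23, 10.80, 2.11, 0.00 and 10.16), *CALY* (10.16, 8.70, 11.22, 0.00 and 7.11) and the axon guidance gene *SEMA3E* (11.71, 8.37, 4.44, 1.03 and 12.54) were also at their lowest in TC1936. *LAMB3*, a laminin chain of epithelial basement membrane, was highest in TC1601 at 13.39, and *CLIC6*, a chloride channel protein, reached 10.54 in TC1601 and 11.76 in TC1936. *GFY* was highest in TC2289 at 11.89 and at 5.84 or less elsewhere.

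**Figure D4:**
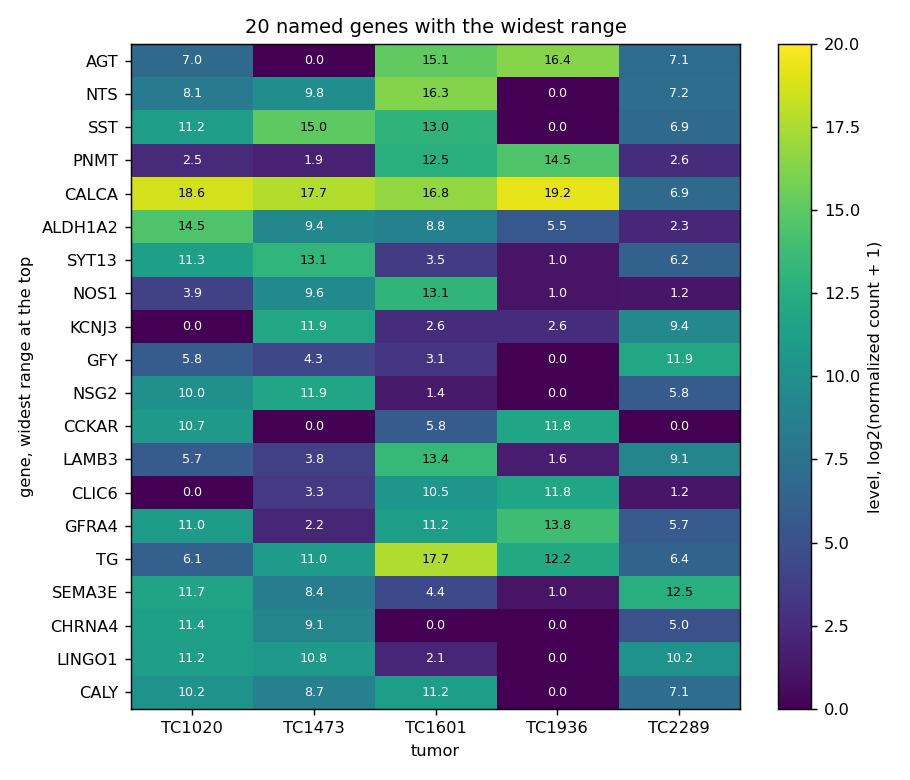
Levels, as log2 of the normalized count plus 1, of the 20 named genes with the widest range in each of the 5 tumors, with colour and printed value showing the level. TC1936 is at 0 for *NTS*, *SST*, *GFY*, *NSG2*, *CHRNA4*, *LINGO1* and *CALY*, and *CALCA* is low in TC2289 alone.

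To see which tumors the variable genes set apart, the 5 levels of each gene were sorted and the place of the largest gap was noted. The gap left 1 tumor on the high side for 1306 genes (34.0%), 2 tumors for 727, 3 for 626 and 4 for 1186 (30.8%). The most frequent pattern, with 589 genes, was TC1936 alone on the low side. TC1473 was alone on the low side for 230 genes, TC2289 for 199, TC1601 for 122 and TC1020 for 46. These smaller counts depended on the set of tumors, with TC1601 at 65 without TC1473 and 303 without TC1936, TC1020 at 101 without TC1473, 72 without TC1936 and 73 without TC2289, and TC2289 at 314 without TC1936. Scaled by total counts, TC2289 had 320 and TC1473 184, so that their order turned, while TC1936 had the most, 600. With a pseudocount of 8 TC1936 had 272, and with 10 counts required in all 5 tumors 184. The counts of the other tumors fell as well, and TC1936 still had the most. On the high side TC1601 was alone for 365 genes, TC1473 for 277, TC2289 for 242, TC1936 for 235 and TC1020 for 187. Of the genes that passed the filter, 1144 had 0 counts in TC1936, against 386 to 773 in the others.

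Among patterns with several tumors on each side, TC1020 and TC1473 were high together for 214 genes, TC1020, TC1473 and TC2289 for 205, and TC1601 and TC1936 for 163. Genes of these patterns were named after their values were seen. High in TC1020, TC1473 and TC2289 were, for example, *AMPH*, a synaptic vesicle protein (9.29, 9.01, 0.87, 0.00 and 9.21), the transporter *SLC6A15* (7.92, 9.46, 0.87, 0.00 and 10.42) and *BRINP1* (8.60, 7.93, 0.87, 0.00 and 9.13). *LGR5*, a receptor for R-spondins, was also among them, with levels of 11.91, 11.57, 5.03, 2.63 and 11.73. High in TC1601 and TC1936, beside *PNMT*, *AGT* and *CLIC6*, were *PRKAG3* (2.71, 4.14, 10.83, 12.21 and 3.11), *CLDN4*, a tight junction protein (3.48, 2.43, 10.40, 9.45 and 2.88), and *FXYD3* (1.51, 1.46, 11.58, 9.39 and 3.78). High in TC1020 and TC1473 were *CACNG2* (8.22, 8.04, 1.41, 1.03 and 1.82) and *SEZ6L* (11.13, 9.48, 1.41, 1.62 and 3.31), both of neuronal membranes.

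Each tumor also had transcripts that it held alone. TC1020 was above the rest for *CALB2*, a calcium-binding protein (7.83, others at most 1.86), and for *IZUMO1R* (10.01, others 4.32 to 4.87). It was below the rest for *GREB1* (2.90, others 6.83 to 11.34) and *PTPRD* (4.89, others 8.00 to 9.32). TC1473 alone held *SYCP1*, a synaptonemal complex protein of meiosis, at 8.75 with 0 counts in the other 4, and the cilium gene *CFAP221* at 9.13 (others at most 1.91). *FSTL5* and *WDR17* reached 13.87 and 12.20 in TC1473, 5.95 and 6.46 above the next tumor. *NPPC*, a natriuretic peptide, was at 2.65 in it, against 7.88 to 10.84 elsewhere.

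TC1601 was above the rest for *CAPN8* (10.58, with 0 counts in 3 of the others), *UPK1B*, a uroplakin (9.73, others at most 3.59), and the mucin *MUC5B* (12.23, others at most 6.25). The gastrin-releasing peptide gene, *GRP*, reached 7.59 in TC1601 and at most 1.51 elsewhere. TC1601 was below the rest for *TENM3* (8.55, others 14.43 to 15.08), *DDX25* (0 counts, others 7.36 to 8.64) and *EGF* (4.50, others 8.43 to 12.23). TC1936 stood above for *RSPO2*, an R-spondin (9.58, others at most 0.91), *TFPI2*, a protease inhibitor (16.69, others 7.75 to 10.51), and *XDH*, xanthine dehydrogenase (15.60, others 6.55 to 9.77). It stood below for *L1CAM*, a neural adhesion molecule, with levels of 13.04, 11.91, 10.60, 3.22 and 12.73 over the 5 tumors. *JAKMIP1* (1.03, others 8.42 to 9.26) and *TMEM179* (0 counts, others 7.20 to 9.86) were of the same kind.

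TC2289 was above the rest for *TRHDE*, an enzyme that degrades thyrotropin-releasing hormone (9.61, others at most 0.94), *NRN1*, neuritin (10.80, others at most 3.41), and *SLC9B1* (10.99, others at most 4.30), beside *CALCR*. *PTH2* had 0 counts in the other 4 tumors and a level of 7.73 in TC2289. It is the neighbour of *GFY* in the gene order of UU_Cfam_GSD_1.0, and *GFY* was also highest in TC2289. Whether reads were shared between these neighbours was not tested. Beside *CALCA*, TC2289 was below the rest for *SLIT3*, a guidance ligand (6.41, others 11.51 to 12.92), *ABCA13* (4.23, others 11.02 to 12.59), *RASSF10* (0 counts, others 7.19 to 9.83) and *XK* (1.82, others 8.28 to 9.65).

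Of the list of peptide hormones, 28 were measured and 16 passed the filter, of which 9 were variable, *SST*, *NTS* and *GRP* among them, where 19.3% of all genes were. *UCN* and *GCG* had 0 counts in all 5 tumors. *NMU*, neuromedin U, was at 10.40 in TC1936 and between 7.02 and 7.43 elsewhere. *ADM2*, of the calcitonin family, ran from 2.27 in TC2289 to 9.48 in TC1601, and *STC1*, stanniocalcin, was highest in TC2289 at 10.95. Among neuroendocrine transcription factors 4 of 11 were variable, again beside 19.3% of all genes. *ISL1*, which marks C cells and other endocrine cells, was close in all tumors, at 11.02, 10.58, 10.94, 11.35 and 11.09. *PROX1* lay between 10.77 and 12.41 and *FOXA2* between 8.66 and 10.43. *MYT1* had levels of 12.16, 11.18, 9.12, 3.05 and 8.27, lowest in TC1936, and its relative *MYT1L* reached 9.80 in TC2289 and at most 4.21 elsewhere.

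In the RET signaling list, 15 of 18 genes passed the filter and 4 were variable, a share not far from the 19.3% of all genes. Of the ligand genes in the list, *GDNF*, *NRTN* and *PSPN*, but not all, were at trace in every tumor, with levels of at most 2.49. Of the co-receptors, *GFRA4* had the wide range given above, and *GFRA1* reached 7.52 in TC1601 and 2.27 in TC2289. The adaptor *GRB2* was close, at 10.65 to 11.59, while *IRS2* ran from 6.46 in TC1473 to 11.35 in TC1936 and *SHC1* from 8.66 in TC1473 to 11.69 in TC1601. Among 20 growth factor receptor genes 7 were variable, beside 19.3% of all genes. *MET* had 9.16, 8.48, 6.38, 10.73 and 3.90, lowest in TC2289. *ERBB2* was at 11.18 in TC1601, 8.45 in TC1936 and 5.98 to 6.45 in the others, and *ALK* had 0 counts in TC1936 and at most 6.45 elsewhere. *FGFR1* (11.85 to 14.74) and *INSR* (12.51 to 15.75) were high in all 5. *MYC* was at 13.16 in TC2289 and between 9.34 and 10.49 in the other tumors.

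Markers of other cells that a piece of thyroid can hold were read in the same tumors. In bulk RNA, fewer cells of a type and less RNA per cell cannot be told apart. Of 13 genes of thyroid follicular cells, 12 were variable, beside 19.3% of all genes. Their median range was 7.88, and 10 were highest in TC1601. Their summed normalized counts were 3516, 3101, 222841.5, 10962 and 986 in TC1020, TC1473, TC1601, TC1936 and TC2289. *TG*, thyroglobulin, had levels of 6.11, 10.96, 17.65, 12.17 and 6.38, and *SLC5A5*, the iodide transporter, 0.94, 4.21, 9.71, 7.06 and 3.78. TC1601 was highest and TC1936 next for both of these, as they were for *CLDN4*, *FXYD3* and *ERBB2*. The part that follicular cells in the pieces had in those values was not tested. *DUOX2*, an oxidase of hormone synthesis, was at 0 counts in TC1020 and 9.80 in TC1601, while *SLC26A4* was highest in TC1473 at 8.84. Of parathyroid genes, *PTH* reached 8.27 in TC1936 and at most 5.40 elsewhere, and *CASR*, the calcium sensor, which C cells share with parathyroid cells, was high in all 5 at 13.32 to 15.41.

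Stromal genes were highest in TC1601 as well. Of 12 fibroblast and matrix genes 9 were variable, beside 19.3% of all genes. Of the 12, 9 were highest in TC1601 and 10 were lowest in TC1936. *COL1A1*, a chain of type I collagen, had levels of 14.09, 13.37, 16.84, 11.72 and 14.55, and *FAP*, a protease of activated fibroblasts, 4.97, 8.81, 7.98, 2.63 and 7.79. All 10 endothelial genes and all 6 smooth muscle and pericyte genes were lowest in TC2289, under each of the 4 scalings tried. *VWF* had levels of 11.10, 11.70, 12.25, 9.88 and 8.71, and *PECAM1* of 10.06, 12.19, 11.00, 11.58 and 9.08. *KDR*, a receptor for vascular endothelial growth factor, differed little, at 10.26 to 11.36. Immediate early genes, which are induced within minutes of handling or stimulation, were highest in TC1601 for 8 of 11 members. *FOS* had levels of 9.37, 8.21, 12.14, 9.49 and 7.38, and *EGR1* 9.62, 9.08, 11.23, 7.99 and 7.35. The part of stroma or of tissue handling in the genes that TC1601 held alone was not tested.

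Immune cell genes had median ranges of 3.16 (T and NK cells), 2.69 (macrophages and neutrophils) and 3.53 (B and plasma cells). Of 11 T and NK cell genes 3 were variable, not far from the 19.3% of all genes, and 7 were lowest in TC1936. *CD3E* had levels of 6.07, 7.78, 7.13, 4.81 and 6.53. In TC2289, 6 members were highest, or 3 when scaled by total counts, and *CD5*, at 10.83 there and 7.71 to 9.44 elsewhere, held most of its summed count. Of 14 macrophage and neutrophil genes, 8 were highest in TC1601 and 6 in TC1473, with *C1QC* close in all at 9.85 to 10.98 and *MARCO* without a count in TC2289. Of 10 B and plasma cell genes, 5 were highest in TC1473. *JCHAIN*, the joining chain of antibodies, was at 13.35 there and at 8.59 to 10.95 elsewhere, and *IGHM*, named after its values were seen, was at 13.05 and at 6.48 to 8.06. *CD79A* was high in all 5 at 12.20 to 15.25, although its partner *CD79B* was at 4.46 or less and *MS4A1* at 4.57 or less. Its neighbour in UU_Cfam_GSD_1.0 is a ribosomal protein gene, *RPS19*, not analysed here, and whether *CD79A* holds reads of that gene was not tested.

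Of 16 interferon response genes, 6 were variable, beside 19.3% of all genes, and 11 were highest in TC1473. *IFI44* was at 10.97 in TC1473 and at 7.02 to 7.74 elsewhere. *IFI6* had another order, with levels of 12.40, 9.41, 8.78, 5.45 and 6.32. *MX2* was at 14.22, 13.60, 10.58, 8.87 and 12.34. It lies beside *FAM3B* in the gene order of UU_Cfam_GSD_1.0, and *FAM3B*, named after its values were seen, was at 13.49, 11.70, 9.65, 3.96 and 12.26, in the same order of tumors apart from TC1473 and TC2289. Whether reads of the pair were mixed was not tested. Proliferation genes had a median range of 1.96 over 16 members and 1 variable gene, again beside 19.3% of all genes. *MKI67* lay between 8.86 and 10.88 and *CCNB2* between 6.01 and 6.84. The exception was *CENPF*, a kinetochore protein, at 14.38 in TC1936 and at 7.95 to 9.88 elsewhere. Hypoxia response genes had a median range of 2.19 over 11 members, with *VEGFA* at 11.18 to 13.14 and *EGLN3* from 5.27 in TC1936 to 9.91 in TC1601.

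**Figure D5:**
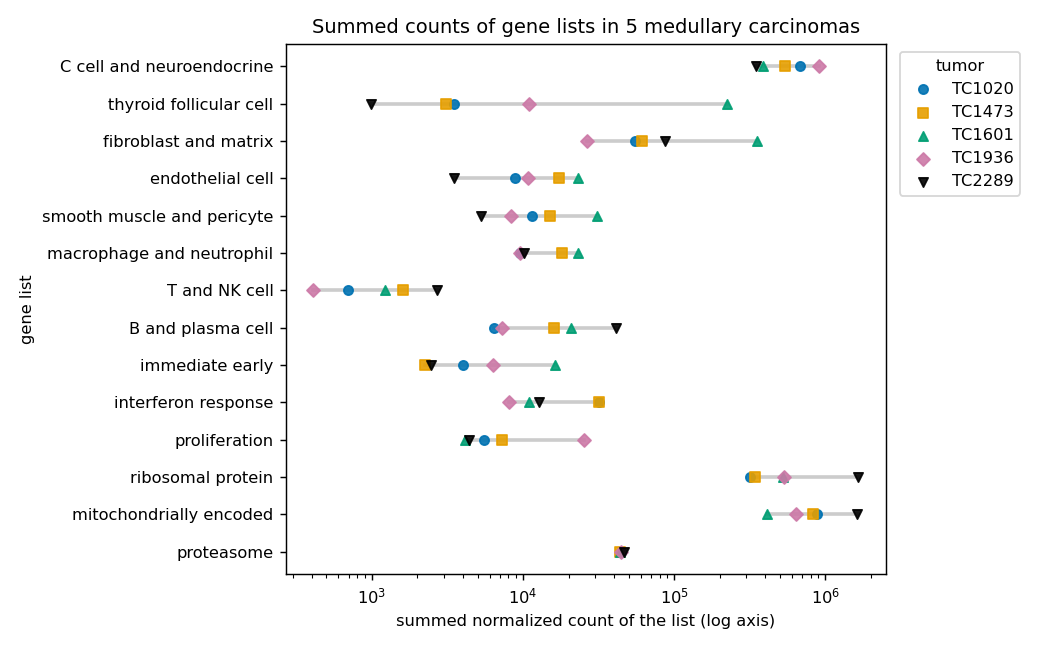
Summed normalized counts of the measured members of 14 gene lists, on a log axis, with 1 symbol per tumor and a grey line over the 5 tumors. The follicular list runs from 986 in TC2289 to 222841.5 in TC1601, while the proteasome list stays between 43672.5 and 46387.2. Some sums are mostly 1 gene, for example *TG* (follicular, TC1601), *CENPF* (proliferation, TC1936), *CD79A* (B and plasma cells, TC2289) and *MX2* (interferon, TC1020). Of 10 B and plasma cell genes 1 was highest in TC2289, and of 16 interferon genes 11 were highest in TC1473.

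Over all 19925 genes, the levels of any pair of tumors had a Pearson coefficient between 0.782 (TC1473 and TC1601) and 0.870 (TC1020 and TC1473). These are coefficients across genes, which are not independent replicates, and the tumors share one protocol and gene table. TC1473 and TC1601 differed by a median of 1.46 per gene, and by 4 or more for 1171 genes. The pair with the most genes differing by 4 or more was TC1473 and TC1936, with 1433, and the pair with the fewest TC1020 and TC1473, with 405. By Spearman's coefficient the closest pair was TC1020 and TC2289, at 0.882, although TC2289 had almost no *CALCA*.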

How the data were processed

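Per the labels and the study's methods, total RNA of 30 frozen canine thyroid tumors was extracted with TRIzol and made into paired-end libraries after removal of ribosomal RNA. Alignment was to CanFam3.1 with STAR, whose raw counts per Ensembl gene the authors deposited as 1 table without normalization. The strand setting of the counting is not given in the sources used here, so overlapping and antisense genes may share reads. Counts of TC1020, TC1473, TC1601, TC1936 and TC2289 were used, and no comparison with other tumors was made. The class of these tumors comes from the study and not from the sample labels, so values are given per tumor without a mean, an SD or a test of 1 tumor or group against others, apart from an outlier check in the closing section.

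Counts were divided by median-of-ratios size factors over the 5 tumors, and 1 was added before taking log2. Genes with at least 10 counts in 1 or more tumors were kept, 19925 of 30424. Totals of 24078138 to 29147072 counts keep counting error small except for genes with few counts. The range calculation was tested on simulated data. Named genes were the 20 with the highest median share, the 20 with the widest range and a normalized count of at least 100 in a tumor, and the 20 with the smallest range and a mean normalized count of at least 200. For each tumor, the 5 genes farthest above and the 5 farthest below the next tumor were added, of which some are named, together with members of gene lists. Tumors, limits and lists were chosen with earlier results of these data known. A table of RefSeq genes on UU_Cfam_GSD_1.0 gave gene neighbours only. Values of some other genes are not reported here.

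Alternatives were size factors over all 30 tumors, edgeR 4.0.16 TMM factors (R 4.3.3), a pseudocount of 8, other filters and limits, and leaving out each tumor. Scaling by total counts and setting counts under 3 to 3 were added after seeing the data. Other steps used Python 3.11.15 with numpy 2.4.6, pandas 2.3.3, scipy 1.17.1 and matplotlib 3.10.9.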

Additional observations from a re-analysis of the deposited data

Results flagged for a closer look

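Each library measure, gene list sum and named gene was checked for 1 tumor standing apart, by the gap of the highest or lowest tumor to the nearest, divided by the range over the 5 (Dixon's critical value 0.71). Gene levels and list sums were taken on the log2 scale and library measures on their own scale. Of 194 values examined 12 passed, and genes named for their distance from the next tumor were not examined unless they belonged to another set. The genes came from sets ranked in these same tumors or from list members named in the text. No rate expected by chance can therefore be set against the 12. The result depends on the scale. With the other scale for each, chosen after seeing the data, 7 of 29 list sums passed without the log, among them the follicular (0.955) and fibroblast (0.814) sums, both highest in TC1601. On the log2 scale 2 of 7 library measures passed, and the ribosomal protein share, at 0.662, did not.

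TC2289 stood apart in the number of genes holding 50% of its counts (79, against 470 to 606; 0.742) and in the share of its top 2 genes (34.3%, against 13.4% to 17.5%; 0.804). It also did so in the share of ribosomal protein transcripts (4.90%, against 1.43% to 2.17%; 0.787). On single genes TC2289 was low for *CALCA* (6.93, others 16.75 to 19.22; 0.799), *HSPB1* (5.86, others 9.13 to 10.47; 0.71) and *HSPA5* (14.43, others 15.01 to 15.24; 0.714).

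TC1473 was high for *IFI44* (10.97, others 7.02 to 7.74; 0.819) and for *ANP32A* (11.35, others 11.04 to 11.13; 0.721). It was low for *VPS39* (11.27, others 11.52 to 11.59; 0.786). *ANP32A* and *VPS39* had ranges of 0.31 and 0.32 and so were steady by the limit of 0.5. TC1936 was low for *UCHL1* (6.89, others 10.58 to 11.33; 0.831) and high for *NMU* (10.40, others 7.02 to 7.43; 0.879). TC1601 was high for *GRP* (7.59, others 0.00 to 1.51; 0.801).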

How the results depend on the processing

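The 3845 variable genes became 1816 with a pseudocount of 8 and 2758 with counts under 3 set to 3. Where 10 counts were required in all 5 tumors they became 1172. They became 7385 with a limit of 3, 1978 with a limit of 5, and between 2704 (without TC1936) and 3284 with each tumor left out. The 95 steady genes became 41 with a limit of 0.4, 52 with a mean count of 1000, and between 232 and 399 (without TC1473) with each tumor left out, fewer tumors giving narrower ranges. The lowest Pearson coefficient of 0.782 became 0.666 with 10 counts in all 5 tumors and 0.902 without a filter, which adds genes at 0 in every tumor, and 0.771 to 0.809 with each tumor left out. The share of the 20 most abundant genes, with a median of 6.83%, stayed between 6.68% and 7.78% with each tumor left out. Without TC2289 the range of *CALCA* was 2.43, and the other 19 of the widest-ranging named genes stayed over the limit. A planned share per length of coding sequence was not run, because lengths were not given. With 1 library per tumor, piece-to-piece and library-to-library spread cannot be separated from differences between tumors.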

Other observations

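Of skeletal muscle genes 13 passed the filter and 7 were variable, beside 19.3% of all genes, with a median range of 4.17. In that list the slow myosin *MYH7* lay between 9.71 and 11.60 in all tumors, *ACTA1* ran from 7.03 in TC1936 to 12.22 in TC1601, and *TNNT1* was at 8.30 in TC2289 and at 0 counts in TC1936. Of antigen presentation genes 7 passed and 0 were variable, beside 19.3% of all genes. *CD74*, the invariant chain of class II molecules, lay between 12.95 and 14.33 and *B2M*, the light chain of class I molecules, between 12.95 and 14.90. Adipocyte (3 passing, 1 variable), erythroid (3 passing, 1 variable) and Schwann cell genes (4 passing, 1 variable) were low. These lists were too small for their counts of variable genes to be set against the 19.3% of all genes. *PMP2*, a myelin protein, had 0 counts in all 5.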
